A study of Mus musculus with 8 samples.

Results

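Paired receptors are families of related surface proteins in which some members switch a cell on and others hold it back. The family members described here were 10 mouse genes of the TREM, CD300, Siglec and PIR families, chosen by name (Trem1, Trem3, Treml2, Treml4, Cd300a, Cd300lf, Cd300lb, Siglece, Pirb and Cd33). Each of the 10 genes had 1 row on the array, matched by its RefSeq transcript, out of 19836 genes with a symbol and 24625 rows in all. The question was how lung neutrophils carried messenger RNA of these receptors during bacterial pneumonia.

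Neutrophils came from the lungs of wild type mice aged 6 to 12 weeks per the labels (the methods give a narrower range with a lower upper end), on the C57BL/6J background per the methods, 24 h after an instillation through the trachea. In 4 samples the mice had received Streptococcus pneumoniae (SP), a common cause of bacterial pneumonia, and in 4 samples phosphate-buffered saline (PBS), each at 2.3 µl per g of body weight. Cells were pulled from digested lung with magnetic beads against Ly6G, a neutrophil surface protein, and the methods describe a purity check on stained cells for the SP group alone. The methods also report high Ly6G messenger RNA in all samples. The labels do not say whether each sample came from 1 mouse, while a legend of the study describes a sample as coming from a mouse. Values are log2 signals of Affymetrix Mouse Gene 1.1 ST arrays, where a difference of 1 is 2-fold, and precision is limited by how many arrays there are.

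Activating members of these families carry short tails and signal through adaptor proteins, chiefly DAP12 (encoded by Tyrobp), which pass the signal to the kinase Syk. Inhibitory members carry tyrosine motifs (ITIMs) in their own tails, which recruit phosphatases such as SHP-1 (Ptpn6) and SHIP-1 (Inpp5d). TREM-1 amplifies inflammatory responses of neutrophils and monocytes, and Siglec-E, which binds sialic acids on other proteins and cells, restrains neutrophils.

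The TREM members lie side by side in the genome. From Trem1 to Treml2 the RefSeq annotation of GRCm38.p6 holds 4 protein-coding genes in the order Trem1, Trem3, Treml4 and Treml2. The stretch from Cd300a to Cd300lf holds 12, with Cd300a and Cd300lb next to each other. Cd33 and Siglece are separated by 4 other protein-coding genes.

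Stretches in front of the 5 genes that differed between the groups are shown because 1 of them, Cd300lb, moved the opposite way to the others. Each line gives the 100 bases before the transcript start in the RefSeq promoter table of GRCm38.p6, read 5′ to 3′ on the gene's strand. Capitals mark the letters GAGGAA or its reverse complement TTCCTC, a form of the box bound by the myeloid factor PU.1. They also mark TATAAA or its reverse complement TTTATA, the TATA box.
Treml4, chr17:48264195-48264294, plus strand: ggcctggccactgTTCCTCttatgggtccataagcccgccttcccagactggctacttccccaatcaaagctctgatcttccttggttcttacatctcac
Cd300a, chr11:114889941-114890040, plus strand: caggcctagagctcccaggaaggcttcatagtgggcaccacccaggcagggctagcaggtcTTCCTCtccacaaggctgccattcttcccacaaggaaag
Cd300lf, chr11:115133993-115134092, minus strand: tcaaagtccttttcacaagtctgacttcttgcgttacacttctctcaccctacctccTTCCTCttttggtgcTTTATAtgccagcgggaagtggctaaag
Siglece, chr7:43660162-43660261, minus strand: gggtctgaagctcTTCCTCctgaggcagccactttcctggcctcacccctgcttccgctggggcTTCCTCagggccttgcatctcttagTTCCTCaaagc
Cd300lb, chr11:114934372-114934471, minus strand: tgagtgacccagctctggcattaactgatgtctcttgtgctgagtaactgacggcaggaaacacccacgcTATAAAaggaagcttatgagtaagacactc

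The promoter table held 8 of the 10 genes, all but Trem3 and Treml2. In windows of 250 bases before to 50 after the start, on both strands, GAGGAA was present in 7 of the 8, and the gene without it was Cd300lb. Only these exact letters were searched, so Cd300lb may hold shorter or variant forms of the box. Of 32544 windows in the table, 28.1% held GAGGAA. In Siglece it occurred 3 times, with first bases at positions -87, -36 and -11 from the start. TATAAA was found in Cd300lb at -30 and in Cd300lf at -28, against 13.6% of all windows. The interferon-stimulated response element, searched by name and present in 3.45% of windows, the AP-1 letters TGANTCA (7.79%) and the cyclic AMP response letters TGACGTCA (1.8%) were in none of the 8 windows. The gamma-activated letters TTCNNNGAA (8.33%) were in Trem1 only, and an NF-κB site, searched by name (8.49%), in Cd300a only. No match of 1 motif overlapped a match of another. A match of letters is a description and not a binding site, and the motifs were picked with the expression values known.

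Among the 10 genes, 4 were higher and 1 was lower in SP (limma, adjusted p no larger than 0.05), and 5 were not called. Over all rows, 21.5% were called higher and 22.6% lower. At a difference of at least 2-fold, 2 genes were higher (Treml4 and Cd300a) and 1 was lower (Cd300lb), against 6.37% and 11.3% of all rows. The 4 SP arrays lay above the 4 PBS arrays in 4 genes (27.2% of all rows) and below them in none (21.8%). Groups overlapped in the other 6 genes. With 10 genes these counts describe the list and are not a result about the families as such. Fewer receptor transcripts per cell and fewer cells that carry them cannot be told apart in RNA of a whole sample.

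**Figure D1:**
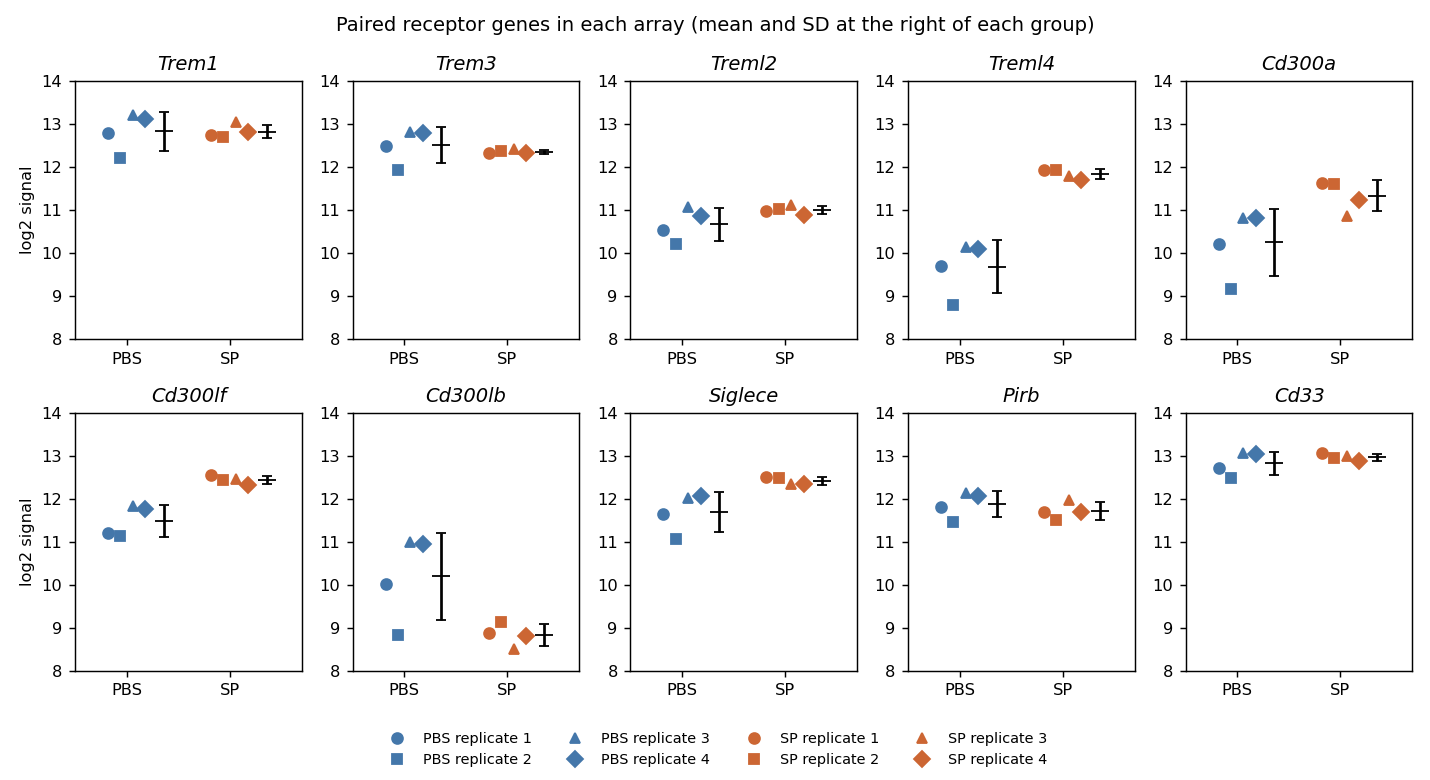
Log2 signal (vertical axis, the same scale in every panel) of the 10 paired receptor genes in the 4 PBS arrays (blue) and the 4 SP arrays (orange). Each symbol shape is a replicate number, and the black mark with bars at the right of each group is the mean with its SD. PBS replicate 2 (square) was the lowest PBS array in all 10 panels, and SP arrays lay above all PBS arrays for Treml4, Cd300a, Cd300lf and Siglece.

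One sample of each group stood apart, PBS replicate 2 in the receptor genes and SP replicate 3 in cell markers. PBS replicate 2 had the lowest value of the 4 PBS arrays in 10 of the 10 genes, while it was lowest in 36.3% of all rows. It lay below the mean of the other PBS arrays by 0.45 to 1.80 log2 units, with a median gap of -0.79, against a median gap of -0.016 over all rows. The PBS group was more variable than the SP group in 10 of 10 genes (34.3% of all rows), with SDs of 0.28 to 1.01 in PBS and 0.045 to 0.36 in SP. Without PBS replicate 2 the PBS spread was still the larger in 8 of 10 genes. In this sample the mean of 15 markers of lung epithelium, endothelium and fibroblasts was the highest of the PBS group (11.73, against 11.16 to 11.59), and the mean of 13 neutrophil markers was the lowest (10.90, against 11.04 to 11.20). Among the SP arrays, replicate 3 had the highest mean of the neutrophil markers (11.59, against 10.57 to 10.86) and the highest value of the 4 in 11 of those 13 genes, with Camp, a granule protein of maturing neutrophils, at 10.94 against 7.60 to 8.17. It was lowest of the SP arrays in 11 of 13 monocyte and interstitial macrophage markers. Of the 10 receptor genes it was lowest in 2 and highest in 4, while SP replicate 4 was lowest in 6. The share of all rows in which an SP array was lowest or highest was not counted. Whether these levels bear on the receptor values was not tested.

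The activating receptors were compared first. Treml4, a TREM-like receptor that binds dying cells and strengthens signalling by Toll-like receptor 7, showed the largest difference of the 10 genes. Its log2 signals were 9.70, 8.80, 10.14 and 10.09 in PBS replicates 1 to 4 and 11.93, 11.92, 11.80 and 11.70 in SP replicates 1 to 4. All SP values lay above all PBS values and close together. Treml4 rose 4.46-fold, from 9.68 ± 0.62 to 11.84 ± 0.11 (SD, n = 4 each), a log2 difference of 2.16 with a standard error of 0.27 (95% interval 1.53 to 2.78, adjusted p = 0.000421 by limma). The difference was 1.86 without PBS replicate 2 and 2.31 at most without any other single array, and it was called each time.

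The other TREM genes beside it on the chromosome were not called. Trem1, the DAP12-coupled amplifier receptor, was at 12.78, 12.21, 13.21 and 13.11 in PBS and 12.75, 12.69, 13.05 and 12.81 in SP. The SP values fell inside the PBS range. The means were 12.83 ± 0.45 and 12.83 ± 0.16 (SD, n = 4 each), and the log2 difference of -0.0024 had a 95% interval of -0.48 to 0.48 (adjusted p = 0.993 by limma), so a change smaller than that either way could not be seen. Trem3, a mouse DAP12-coupled receptor, was at 12.49, 11.93, 12.82 and 12.80 in PBS and 12.32, 12.36, 12.42 and 12.32 in SP. Its difference of -0.15 (interval -0.58 to 0.27) was not called (adjusted p = 0.496 by limma), but it was without PBS replicate 2 (-0.35, adjusted p = 0.0322, with 0.0322 to 0.833 over all alternatives). Treml2, a TREM-like receptor of myeloid and B cells, had PBS values of 10.20 to 11.06 and SP values of 10.88 to 11.11. Its difference of 0.33 (interval -0.068 to 0.74, adjusted p = 0.144 by limma) was called with arrays centred on their median (0.61, adjusted p = 0.0209, with 0.0209 to 0.429 over all alternatives).

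Cd300lb, which encodes an activating CD300 receptor that signals through DAP12, was the gene that fell. Its log2 signals were 10.01, 8.84, 10.98 and 10.93 in PBS and 8.87, 9.12, 8.50 and 8.80 in SP. PBS replicate 2 sat among the SP values, and the other PBS arrays lay above all SP arrays. The mean dropped from 10.19 ± 1.01 to 8.82 ± 0.26 (SD, n = 4 each), 2.58-fold lower, with a log2 difference of -1.37 ± 0.44 SE (95% interval -2.39 to -0.35, limma adjusted p = 0.0368). Without PBS replicate 2 the difference was -1.82 (adjusted p = 0.00142). The call was lost without any other single array, PBS replicates 1, 3 and 4 and SP replicates 1 to 4, with differences of -1.47 to -1.10 and adjusted p of 0.0544 to 0.0904. The methods' t-test did not call it either (adjusted p = 0.0776).

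Inhibitory receptors were next. Cd300a, an ITIM receptor that binds phosphatidylserine on dying cells, was at 10.21, 9.15, 10.82 and 10.81 in PBS and 11.62, 11.61, 10.87 and 11.23 in SP. The lowest SP value (replicate 3) lay only just above the highest PBS value. It rose 2.12-fold, from 10.25 ± 0.78 to 11.33 ± 0.36 (SD, n = 4 each, log2 difference 1.08 ± 0.37 SE, interval 0.23 to 1.93, adjusted p = 0.0440 by limma). This call was narrow and was lost without PBS replicate 1 (adjusted p = 0.0930), SP replicate 1 (0.103), SP replicate 2 (0.0948) or SP replicate 4 (0.0666), under the methods' t-test (0.0869) and after another quantile normalization (0.0775). The difference was 0.72 without PBS replicate 2, under 2-fold but still called (adjusted p = 0.0464).

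Cd300lf encodes CLM-1, an ITIM receptor of myeloid cells that also serves mouse norovirus as its receptor. Its signals were 11.19, 11.13, 11.84 and 11.76 in PBS and 12.54, 12.42, 12.46 and 12.32 in SP, with no overlap. It rose 1.94-fold, from 11.48 ± 0.37 to 12.43 ± 0.09 (SD, n = 4 each, log2 difference 0.95 ± 0.17 SE, adjusted p = 0.00268 by limma). The call held under each of the 14 alternatives, at 0.71 to 1.24. It reached 2-fold with arrays centred on their median (1.24), without PBS replicate 3 (1.07) and without PBS replicate 4 (1.05).

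Siglece, the ITIM-bearing Siglec of mouse neutrophils, was at 11.64, 11.05, 12.02 and 12.06 in PBS and 12.51, 12.48, 12.33 and 12.33 in SP. The SP values clustered tightly above the PBS values. It rose 1.65-fold, from 11.69 ± 0.47 to 12.41 ± 0.10 (SD, n = 4 each, log2 difference 0.72 ± 0.21 SE, interval 0.24 to 1.21, adjusted p = 0.0248 by limma). Without PBS replicate 1, SP replicate 1 or SP replicate 2 the adjusted p was 0.0618, 0.0631 and 0.0562. It was 0.0542 under the methods' t-test, and after another quantile normalization the difference was 0.49 (0.0594). Without PBS replicate 2 it was 0.51 and was called (0.0150).

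Pirb, an ITIM receptor for MHC class I molecules, was not called. Its values were 11.80, 11.47, 12.14 and 12.05 in PBS and 11.68, 11.49, 11.98 and 11.68 in SP, with overlapping groups. The log2 difference of -0.15 had an interval of -0.53 to 0.22 (adjusted p = 0.442 by limma) and passed the threshold only after another quantile normalization (-0.40, adjusted p = 0.0391, with 0.0391 to 0.766 over all alternatives). Cd33, a sialic acid-binding Siglec that was not sorted here as activating or inhibitory, ranged from 12.48 to 13.06 in PBS and from 12.86 to 13.05 in SP. Its difference of 0.15 (interval -0.17 to 0.46, adjusted p = 0.382 by limma) was called only with arrays centred on their median (0.43, adjusted p = 0.0409, with 0.0409 to 0.864 over all alternatives).

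**Figure D2:**
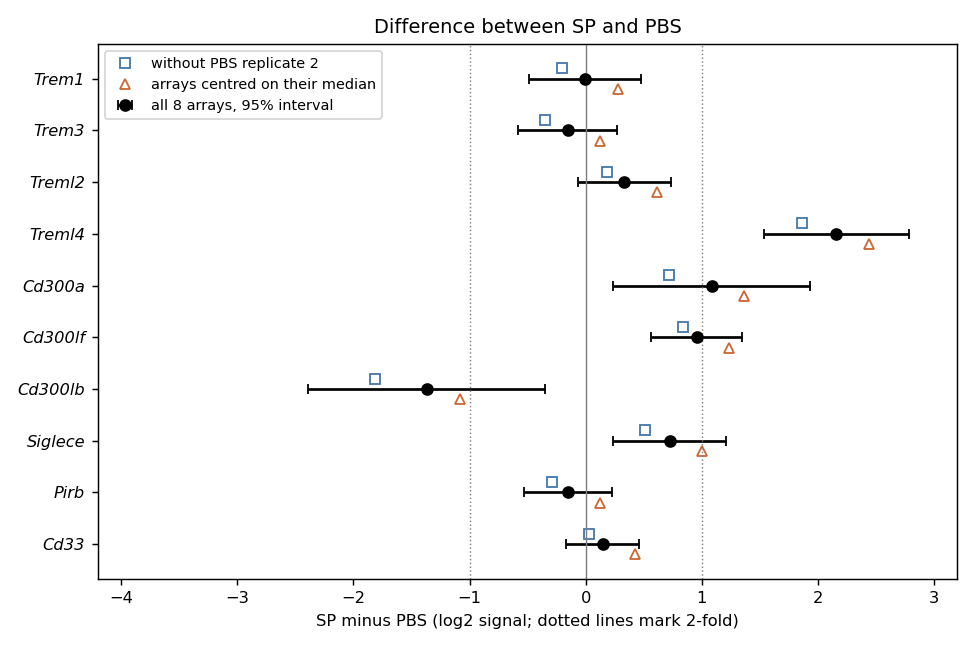
SP minus PBS difference in log2 signal (horizontal axis) for each gene, with the 95% interval over all 8 arrays (black), the estimate without PBS replicate 2 (open squares) and the estimate with each array centred on its median (open triangles). Treml4 lay beyond the 2-fold line throughout and Cd300lb was the one gene whose interval lay below 0.

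Array scale mattered for the smaller differences. The median of an array was 5.78 to 5.91 in SP and 6.06 to 6.20 in PBS, 0.28 log2 units apart on average, whereas rows had a median difference of 0.10. The methods name quantile normalization, which brings arrays to 1 distribution. Why the deposited medians differ between the groups is not known, and every difference is relative to the deposited scale. Centring the arrays therefore added 0.28 to every SP difference and called 7 of the 10 genes, 6 higher and 1 lower. Without it, differences of Trem1, Trem3, Pirb and Cd33 lay below that shift, and their signs were not fixed. Treml4, Cd300a, Cd300lf and Siglece kept a positive difference and Cd300lb a negative difference under all 14 alternatives.

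Members of a family were then compared within each array, which removes whatever shifted all receptors of 1 array together. In each of 4 pairs the log2 signal of the second gene was subtracted from that of the first, and groups were compared by exact permutation (two-sided) of the 70 arrangements, whose smallest p is 0.0286. Only the change of such a difference between groups can be read, since 2 genes' signals are not on 1 scale. Pairs were chosen within a family for opposite or like signalling. In these same arrays Cd300lb had already been called lower, and Cd300a, Cd300lf and Siglece higher. Tests of the pairs that hold these genes are therefore not separate support. Cd300lb minus its neighbour Cd300a was -0.20, -0.32, 0.16 and 0.12 in PBS and -2.75, -2.49, -2.37 and -2.44 in SP. PBS replicate 2 no longer stood apart here, and the groups were far from each other. The activating gene fell against the inhibitory gene by 2.45 log2 units, or 5.46-fold (exact permutation p = 0.0286, 0.0381 adjusted over the 4 pairs).

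Cd300lb minus Cd300lf was -1.19, -2.29, -0.86 and -0.83 in PBS and -3.67, -3.30, -3.96 and -3.52 in SP, which amounts to a change of -2.32 (exact permutation p = 0.0286, adjusted 0.0381). All SP values lay below all PBS values, although PBS replicate 2 was again the nearest to them. Siglece minus Cd33 was -1.07, -1.43, -1.03 and -0.97 in PBS and -0.54, -0.45, -0.67 and -0.53 in SP. Siglece gained 0.58 log2 units, or 1.49-fold, on Cd33 (exact permutation p = 0.0286, adjusted 0.0381). Trem1 minus Trem3 went from 0.32 ± 0.047 to 0.47 ± 0.13 (SD, n = 4 each), a difference of 0.15 that missed the threshold (exact permutation p = 0.0571, adjusted 0.0571). Without SP replicate 1 or SP replicate 3 the 3 called pairs had adjusted p of 0.0571 to 0.0762, at changes of -2.50 to -2.21 for the Cd300lb pairs and 0.57 to 0.62 for the Siglec pair. Without SP replicate 2 the Trem pair passed (0.20, adjusted exact permutation p = 0.0286).

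**Figure D3:**
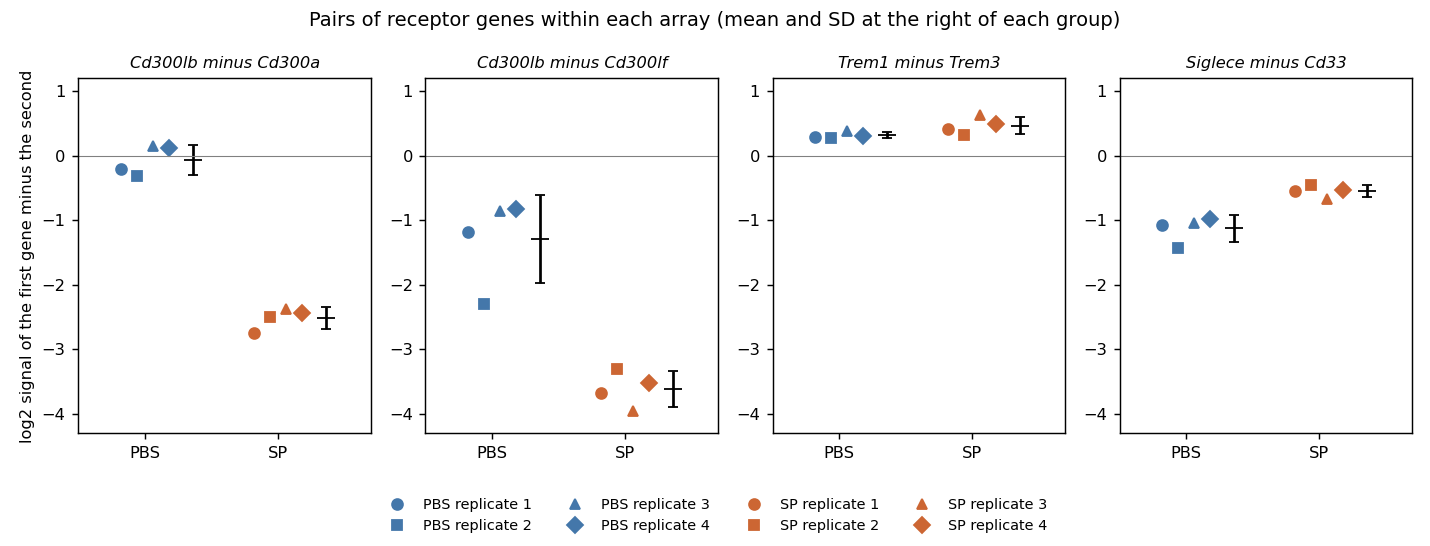
Log2 signal of the first gene minus that of the second in each array (vertical axis, the same scale in every panel) for 4 pairs of receptor genes in PBS (blue) and SP (orange), with the mean and SD at the right of each group. The SP arrays lay apart from the PBS arrays for both Cd300lb pairs and for Siglece minus Cd33, while Trem1 minus Trem3 stayed between 0.28 and 0.64 in all arrays.

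Relatives of the 10 genes gave calls in both directions. Of 13 other TREM, CD300 and Siglec genes with a row (16 listed), 3 were higher and 2 lower in SP, and 8 were not called. None was called at 2-fold higher. Over all rows 21.5% were called higher and 22.6% lower, and 6.37% and 11.3% at 2-fold. The 3 higher genes, named after their values were seen, were Siglec1 (0.87, limma adjusted p = 0.0382), Mag (0.87, 0.000535) and Siglec15 (0.49, 0.0121). Cd22 (2.30-fold lower, limma adjusted p = 0.00527), a Siglec of B cells, and Cd300lg (2.03-fold lower, adjusted p = 0.000315), a CD300 member of endothelium, fell at least 2-fold. Both stayed called but under 2-fold with arrays centred on their median (-0.92 and -0.74) and after another quantile normalization (-0.81 and -0.92), so the split at 2-fold of 0 higher and 2 lower became 3 higher and 0 lower, and 1 higher and 0 lower. The B cell marker list moved with Cd22, with 7 of 10 genes lower, 6 of them at least 2-fold, and a mean of 7.49 to 8.28 in PBS against 6.27 to 7.29 in SP, and Cd22 is itself on that list. The lung structural markers moved with Cd300lg. Whether either accounts for these genes was not tested. Cd300ld, an activating CD300 receptor encoded near Cd300lb, had a difference of -0.61 (adjusted p = 0.170 by limma), and -0.97 without PBS replicate 2 (0.00607, with 0.00607 to 0.413 over all alternatives). Cd300c2, which encodes another activating CD300 receptor, was at 9.17 ± 0.87 in PBS and 10.41 ± 0.79 in SP (SD, n = 4 each). Its difference of 1.24 was not called (limma adjusted p = 0.0733) but was without SP replicate 3 (1.60, 0.0261, with 0.0173 to 0.158 over all alternatives). The count at 2-fold went from 2 to 4 without SP replicate 3 and to 1 without SP replicate 4. Probes of CD300 and PIR genes may bind more than 1 family member, and this was not tested.

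Other paired receptors were represented by 16 genes of 26 listed. Of these, 4 were higher and 2 lower (21.5% and 22.6% of all rows), and 10 were not called. The median difference was 0.36, against 0.10 over all rows. Cd200r4, an activating CD200 receptor, rose 4.82-fold (log2 difference 2.27 ± 0.43 SE, adjusted p = 0.00346 by limma), from PBS values of 6.59 to 7.16 to SP values of 7.88 to 10.02. Lair1, an inhibitory collagen receptor, rose 3.65-fold from 7.89 ± 0.55 to 9.76 ± 0.60 (SD, n = 4 each, adjusted p = 0.00318). Lilra5, an activating receptor, was 2.05-fold lower (adjusted p = 0.00214). With arrays centred on their median the split at 2-fold went from 2 higher and 1 lower to 3 and 0, and after another quantile normalization to 2 and 0, where Lilra5 was called under 2-fold (-0.76 and -0.80). The remaining calls, Cd200r3 (0.64, limma adjusted p = 0.0255) and Ceacam1 (-0.51, 0.0239), are named after their values were seen. Of the related gp49 genes, the inhibitory Lilrb4a was 1.38-fold higher (limma adjusted p = 0.0198), which was lost without PBS replicate 1 or SP replicate 1 (0.0565 in either case), and Lilr4b differed by 0.35 (0.0534, with 0.00684 to 0.125 over all alternatives). Lair1, Cd200r4 and Lilrb4a were all lowest in PBS replicate 2 among the PBS arrays.

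Signalling partners on the activating side comprised 22 genes, all with a row. Of these, 9 were higher and 0 were lower (21.5% and 22.6% of all rows), and 13 were not called. At least 2-fold higher were 5 (6.37% of all rows). The median difference was 0.38. Of the adaptors, Tyrobp (DAP12) was at 12.55 ± 0.21 and 12.73 ± 0.069 (SD, n = 4 each, adjusted p = 0.214 by limma), although it was called with arrays centred on their median (0.46, 0.0171, with 0.0171 to 0.926 over all alternatives). Fcer1g, the adaptor shared with Fc receptors, was 1.28-fold higher (adjusted p = 0.0332), a call lost without PBS replicate 1, SP replicate 1 or SP replicate 2 (0.0747, 0.0823 and 0.0689). Hcst (DAP10), named after its values were seen, was at 7.45 ± 0.77 and 8.26 ± 0.52 (SD, n = 4 each), a difference of 0.80 that was not called (limma adjusted p = 0.128). Larger rises were found downstream. Malt1, the protease of the CARD9-BCL10-MALT1 complex, rose 6.40-fold from 9.01 ± 0.20 to 11.68 ± 0.13 (SD, n = 4 each, adjusted p = 3.71e-06). Lat2, a transmembrane linker, rose 3.35-fold (0.000616) and Vav1, an exchange factor, 3.15-fold (0.00106). The kinase Syk, named after its values were seen, was 1.73-fold higher (limma adjusted p = 0.0152). The number of 2-fold calls was 9 with arrays centred on their median.

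In a list of phosphatases and docking proteins grouped as the inhibitory side, 7 of 14 genes were higher and 1 was lower. Over all rows the shares were 21.5% and 22.6%, and 6 genes of the list were not called. The list also holds genes of wider signalling (Ptpn11, Grb2, Shc1, Ptprj and Ptprc), so its counts are not counts of inhibitory genes. At 2-fold, 2 were higher and 1 was lower (6.37% and 11.3% of all rows). Inpp5d (SHIP-1), a lipid phosphatase bound by several ITIM receptors, rose 2.11-fold from 10.71 ± 0.39 to 11.79 ± 0.22 (SD, n = 4 each, adjusted p = 0.00319 by limma). Its relative Inppl1 (SHIP-2), which is also made outside blood cells, was 2.74-fold lower (0.00420). Dok1, a docking protein, rose 3.54-fold (0.00271), to SP values between 7.15 and 8.80. Ptpn6 (SHP-1), named after its values were seen, was 1.98-fold higher (limma adjusted p = 0.0159). Ptprj (CD148), a receptor phosphatase, was 1.93-fold higher (0.00140), and the difference of Ptprc (CD45) was within its error (-0.11 ± 0.17 SE, adjusted p = 0.588). The count at 2-fold was 5 without PBS replicate 3 or PBS replicate 4, in place of 3. The called changes of the activating list and of this list were not compared with each other.

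**Figure D4:**
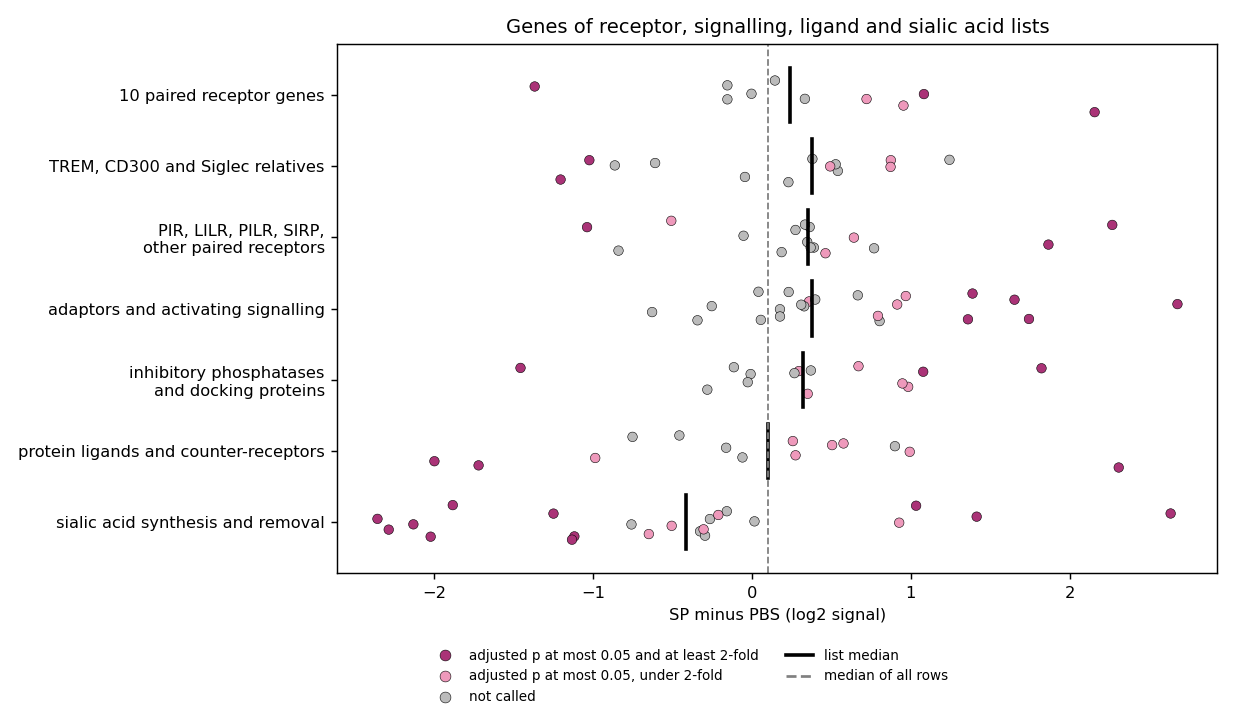
SP minus PBS difference in log2 signal (horizontal axis) of every matched gene in 7 lists, 1 point per gene, spread vertically at random within its list. Colours mark genes called at least 2-fold (dark), called under 2-fold (pale) and not called (grey), black bars are list medians and the dashed line is the median of all rows (0.10). The sialic acid list is the one with a negative median (-0.42).

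Protein ligands and counter-receptors were taken from a list of 16 genes, 14 with a row. Of these, 6 were higher and 3 lower (21.5% and 22.6% of all rows), and 5 were not called. MHC class I genes, whose products bind PIR-B, were among the rises. H2-Q4 rose 4.96-fold from 9.57 ± 0.32 to 11.88 ± 0.17 (SD, n = 4 each, adjusted p = 2.52e-05 by limma), and B2m, the class I light chain, 1.21-fold (0.0112). Cd99l2, related to the PILR ligand CD99, was 3.99-fold lower (0.00353), and Angptl2, a reported PIR-B ligand, 3.29-fold lower (0.000992). Markers of lung structural cells were also lower (below), and whether such cells account for these falls was not tested. Pglyrp1, a peptidoglycan-binding protein of neutrophil granules and a ligand of TREM-1, fell by 0.99 log2 units (limma adjusted p = 0.0242) and is named after its values were seen. Clec4e (Mincle), a lectin receptor of myeloid cells, was at 12.36 ± 0.77 and 13.26 ± 0.037 (SD, n = 4 each, adjusted p = 0.0565), and its difference of 0.90 was called without PBS replicate 2, PBS replicate 3 or PBS replicate 4 (0.0133, 0.0414 and 0.0474, with 0.0120 to 0.107 over all alternatives). Leaving out SP replicate 3 or SP replicate 4 took the count at 2-fold from 3 to 6 or 5.

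Siglecs read sialic acids, and genes that make, attach or remove these sugars gave calls in both directions. Of 22 genes, 4 were higher and 12 lower (21.5% and 22.6% of all rows), and 6 were not called. At 2-fold, 3 were higher and 8 lower (6.37% and 11.3% of all rows). With arrays centred on their median, 4 were higher and 5 lower at 2-fold. St6galnac4, which adds sialic acid to short O-linked sugars, rose 6.22-fold from 8.34 ± 0.097 to 10.98 ± 0.27 (SD, n = 4 each, adjusted p = 6.27e-06 by limma). The sialidase Neu1 rose 2.67-fold (0.00113) and St6galnac6 2.05-fold (0.00281). St6galnac2 was 5.12-fold lower (0.000265), and so was St8sia4, which builds polysialic acid, at 4.88-fold (0.00139). Cmah, which turns the common sialic acid Neu5Ac into the form Neu5Gc, was 4.38-fold lower, from 11.30 ± 0.33 to 9.17 ± 0.46 (SD, n = 4 each, adjusted p = 0.000278). St3gal1, which caps O-linked sugars, was higher by 0.93 log2 units (8.91e-05), and St3gal6 differed by 0.016 (0.934).

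Markers of cells were read beside these results. Over all rows 21.5% were called higher and 22.6% lower. Neutrophil markers were present in both groups, with a list mean of 10.90 to 11.20 in PBS and 10.57 to 11.59 in SP, 3 of 13 genes higher and 3 lower, and none at 2-fold (2 without SP replicate 3). Of the 2 markers of highest mean, Retnlg was lower (-0.47, limma adjusted p = 0.0418) and S100a8 was not called (-0.18, 0.211). The Retnlg call was lost in 9 of the 14 alternatives. Elane and Mpo, made by immature neutrophils and named after their values were seen, were at 4.31 to 5.38 on all arrays. Camp, of the same list, was well above that in the SP arrays, so Elane and Mpo do not stand for the whole list. Ly6g itself had no matched row, so the high level that the methods report was not checked here. Markers of lung structural cells, a list added after the values had been seen, were lower in SP in 13 of 15 genes, with a mean of 11.16 to 11.73 in PBS and 9.59 to 10.50 in SP. Alveolar macrophage markers were lower in 7 of 11 genes and higher in 1 (8.86 to 9.54 against 7.68 to 8.33). The 2 of highest mean went opposite ways, Chil3 up (0.97, limma adjusted p = 0.0216) and Car4 down (-1.25, 0.00797). The Chil3 call was lost in 5 of the 14 alternatives. Marco, a scavenger receptor of this list named after its values were seen, was at 4.93 to 5.49 on all arrays, well below the list mean. Monocyte and interstitial macrophage markers were higher in 6 of 13 and lower in 1 (8.06 to 8.89 against 8.19 to 9.37), and cells of that kind also carry CD300, Siglec and PIR receptors. Dendritic cell markers were higher in 2 and lower in 4 of 12 genes, 4 of them at 2-fold, or 2 without SP replicate 1 (6.50 to 7.01 against 5.90 to 6.32). Eosinophil and mast cell markers were higher in 1 and lower in 1 of 11 (5.32 to 5.81 against 5.42 to 5.65). The part of these cells in the receptor, signalling, ligand and sialic acid values was not tested. The Y-linked genes Ddx3y, Kdm5d and Uty, read as background, were at 4.33 to 4.90 on all arrays and the 10 receptor genes at 8.50 to 13.21. Per the methods, female mice were bought, colonies were bred from them and sex-matched mice were studied, whose sex is not given. Kdm5d was itself called higher (0.19, limma adjusted p = 0.0497), a call lost in 10 of 13 alternatives. A small call near the threshold can thus fall on a row at background level.

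**Figure D5:**
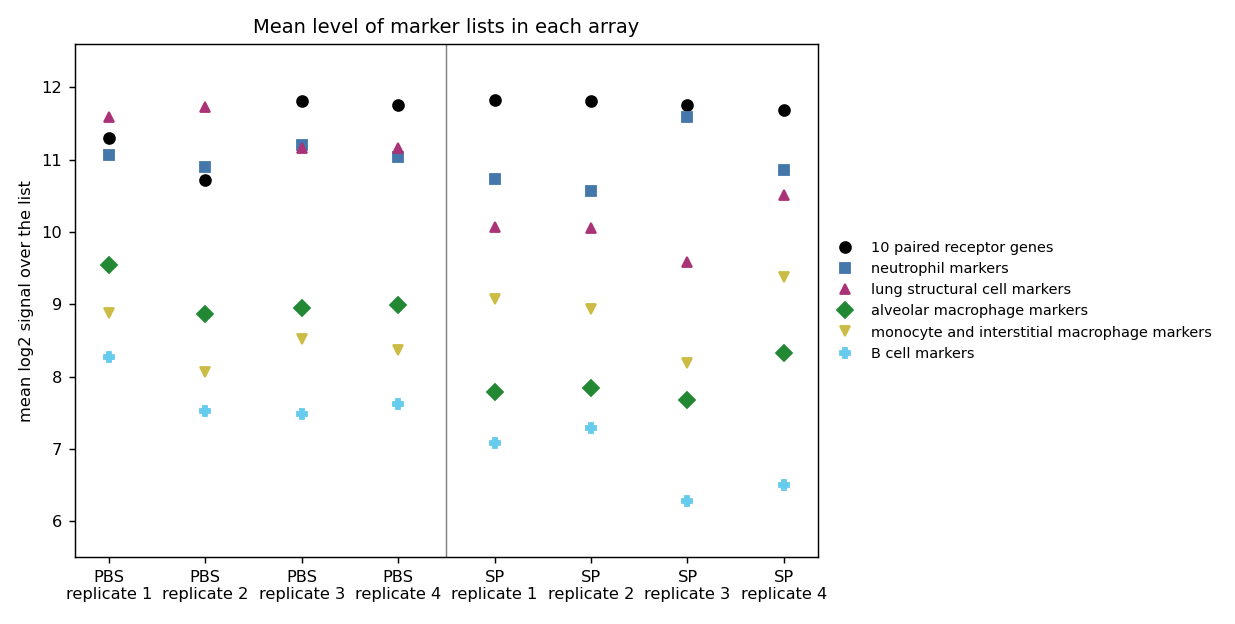
Mean log2 signal over each list (vertical axis) in each of the 8 arrays (horizontal axis, PBS left and SP right of the line) for the 10 paired receptor genes and 5 marker lists. In PBS replicate 2 the receptor mean was lowest (10.73) and the lung structural mean highest (11.73), and the receptor mean lay between 11.69 and 11.83 in all SP arrays.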

How the data were processed

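Gene expression was measured in 8 samples, 4 PBS and 4 SP, each on 1 array. Per the study's methods, the authors made the deposited log2 values by robust multi-array averaging (correction for background and probe sequence, then quantile normalization, with probes of a gene summarised by median polish), which makes them relative within an array. The labels also name Affymetrix Expression Console and Partek. The genome build is not given in the sources used here.

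Of 24625 rows, 19915 received a symbol through RefSeq transcripts of GRCm38.p6. Rows were compared with limma 3.58.1 (R 4.3.3; lmFit and eBayes, two-sided, Benjamini-Hochberg over all rows), with thresholds of an adjusted p of 0.05 and 2-fold, after the test was tested on simulated data. Named genes were the 10 receptors and, of each other list, the 2 of highest mean and up to 3 of the largest rises and falls at 2-fold. Of several marker lists these genes were not printed. Lists were counted, with no set test. The members and lists were chosen with earlier results of these data known. Others named in the text (marker genes near background, Cd300lb's neighbours) were chosen after their values were seen. Alternatives were the methods' t-test, a robust prior with a trend, a replicate block, median centring, quantile normalization, leaving out dim rows and leaving out each array (14 settings). Figures were made with Python 3.11.15 and matplotlib 3.10.9. Depth has no meaning for array signals.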

Additional observations from a re-analysis of the deposited data

How the results depend on the processing

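Of the 10 receptors, 5 were called, against 2 by the methods' t-test, 3 with a replicate block and 2 to 6 without any 1 array. At 2-fold, 3 were called, against 1 by the methods' t-test, 1 with the block, 5 with centred arrays and 1 to 3 without any 1 array. List counts at 2-fold moved to 1 after another quantile normalization (TREM, CD300 and Siglec relatives; 1 to 4 without any 1 array). With centred arrays they were 9 for activating partners, 5 for phosphatases and docking proteins (2 to 5 without any 1 array) and 5 for ligands (3 to 6 without any 1 array). Summed counts for other paired receptors and for sialic acid genes stayed within 1.5 times the main count in all 14 settings, but their falls depended on the scaling: 5 sialic acid genes in place of 8 and 0 paired receptors in place of 1 were lower with centred arrays, as were 0 relatives in place of 2. Centring adds the same amount to every difference. For the other settings the cause was not tested.

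Same-numbered arrays correlated in their deviations from the group means at 0.016, 0.030, 0.35 and -0.27. Such correlations cannot decide whether samples were paired by number, and the main fit treated them as unpaired. With the replicate block, changes in the pairs stayed at -2.45 (Cd300lb minus Cd300a), -2.32 (Cd300lb minus Cd300lf) and 0.58 (Siglece minus Cd33), with an exact permutation p of 0.125, the smallest that 4 pairs allow. Without any 1 array they ranged from -2.54 to -2.37, from -2.65 to -2.17 and from 0.48 to 0.63, and Trem1 minus Trem3 from 0.096 to 0.20.

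Signs turned for uncalled differences. With centred arrays Trem1 was at 0.28, Trem3 and Pirb at 0.13, Ptprc at 0.17 and S100a8 at 0.099. After another quantile normalization Cd33 was at -0.023, Tyrobp at -0.011, Ddx3y at -0.021 and St3gal6 at -0.20. Without any 1 array, Trem1 ranged from -0.21 to 0.12 and St3gal6 from -0.14 to 0.093. With 4 arrays a group, differences under about 0.4 log2 units were within the error for most of the receptors.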
